A study of Mus musculus with 35 samples.

Results

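The BCL2 family genes Bcl2, Bcl2l1, Bcl2l2, Mcl1, Bak1, Bok, Bcl2l11, Bad and Bid were followed across mouse embryonic fibroblasts (MEFs) that had lost NELFB, a subunit of the negative elongation factor complex that holds RNA polymerase II near promoters, or carried it in wild-type or mutant form. The 9 genes were taken by name from the 24421 genes in the count tables. The rule uses no measured value, but the family was chosen with earlier results of these data known. RNA-seq (poly(A) RNA) read counts came from 35 libraries of immortalized Nelfb flox/- MEFs, in which 1 Nelfb allele was already null and the other could be removed by Cre recombinase. In the 20 population libraries, cells carried a pLenti vector that was empty (EV) or expressed wild-type NELFB (WT), MT194, MT486 or the double mutant DMT with both sets of mutations, and were collected 7 days after adenovirus with Cre and GFP (Ad-Cre-GFP) or with GFP alone (Ad-GFP), giving 10 groups of 2 replicates. The MT194 mutations were made to impair binding of NELFB to its partners NELFA and NELFC, and the MT486 mutations to impair binding to NELFE. The other 15 libraries were stable clones, each grown from a single colony after Ad-Cre, 3 each with pLenti WT, MT194 or MT486, with pBabe-WT-ATG-NELFB (WT(N48)), or with pBabe-delta-C60 (Δ-C60), a form of NELFB shortened at the C terminus. All groups were derived from cells of the Nelfb flox/- genotype, whose floxed allele Ad-Cre was used to delete. Every clone had received Cre, and the WT and Δ-C60 clones differed in vector as well as in insert.

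The BCL2 family sets whether a cell opens the outer membrane of its mitochondria and dies by apoptosis. Pro-survival proteins (BCL2, BCL-XL from Bcl2l1, BCL-W from Bcl2l2, MCL1) bind and restrain the effectors that form the pores, of which BAK (Bak1) is a classical one and BOK a divergent relative. BH3-only proteins such as BIM (Bcl2l11), BAD and BID carry death signals by occupying the pro-survival proteins or engaging the effectors directly.

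Reads on genes ranged from 17969149 to 29080007 per population library (median 21617290.5) and from 18413284 to 27816723 per clone library (median 20933014). After filtering genes with low counts, 13805 genes in the populations and 13223 in the clones were tested, and all 9 members passed in both. Ad-Cre-GFP removed Nelfb as labelled in the EV populations, where its level fell from 46.1 and 39.5 CPM (reads scaled to library size with TMM factors) in replicates 1 and 2 with Ad-GFP to 7.97 and 5.46 CPM with Ad-Cre-GFP. In WT, MT194, MT486 and DMT the mean level of Nelfb was 90.1, 68.1, 85.7 and 67.6 CPM with Ad-GFP. With Ad-Cre-GFP it was 68.2, 111, 122 and 188 CPM. Reads of the floxed allele and of the construct cannot be told apart there, so loss of the allele could not be checked. The part of these unequal Nelfb levels in the differences between constructs was not tested. In the clones, however, replicates 1 and 3 of the libraries labelled WT held only 10.3 and 15.5 CPM of Nelfb, against 109 CPM in replicate 2, so that 2 of the 3 went against their label, and the calls of the comparisons with this group are also given without these 2 libraries. All libraries carried fibroblast transcripts, with Col1a1 at 1491 CPM or above and Vim at 1065 CPM or above, but 2 of the 10 fibroblast markers examined were at or near 0, Thy1 (at most 0.160 CPM) and Lum (at most 3.17 CPM). In single clones Pdgfra and Dcn went down to 5.48 and 0.494 CPM. Of the markers of other cell types, the 4 epithelial ones reached at most 2.02 CPM in any library (Cdh1), the 3 endothelial ones 4.39 CPM (Kdr) and the 3 haematopoietic ones 5.98 CPM (Cd68), with Epcam, Cdh5 and Ptprc at or under 0.640 CPM. Of the 2 neural markers, Sox10 stayed at or under 0.0507 CPM, whereas Tubb3 reached 9.76 CPM in the populations and 52.1 CPM in the clones.

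Promoter sequence is shown for Bok and Bcl2, the 2 members for which both Ad-Cre-GFP libraries lay above both Ad-GFP libraries in all 5 constructs. The share of all tested genes that separated in this way is not given here, so the separation does not set these members apart from other genes. Both genes lie on chromosome 1 of mm10 (GRCm38), Bok on the plus strand from 93685660 to 93695764 and Bcl2 on the minus strand from 106538178 to 106714274. Each RefSeq window (GRCm38.p6) runs from 250 bases before to 50 bases after an annotated transcription start, chr1:93685325-93685624 for Bok and chr1:106714241-106714540 for Bcl2, and is written 5′ to 3′ along the gene's strand. Capitals mark matches, on either strand, to the GC box GGGCGG and to the E2F core TTCGCGC, the 2 of the 4 motifs searched that were found in these windows (the others were the TATA box TATAAA and the cAMP response element TGACGTCA).
Bok: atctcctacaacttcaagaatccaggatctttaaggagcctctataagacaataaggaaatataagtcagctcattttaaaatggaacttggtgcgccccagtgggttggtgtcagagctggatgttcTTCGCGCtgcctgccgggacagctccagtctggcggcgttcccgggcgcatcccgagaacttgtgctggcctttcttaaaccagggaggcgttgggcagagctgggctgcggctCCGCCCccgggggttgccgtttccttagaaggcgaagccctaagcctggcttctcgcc
Bcl2: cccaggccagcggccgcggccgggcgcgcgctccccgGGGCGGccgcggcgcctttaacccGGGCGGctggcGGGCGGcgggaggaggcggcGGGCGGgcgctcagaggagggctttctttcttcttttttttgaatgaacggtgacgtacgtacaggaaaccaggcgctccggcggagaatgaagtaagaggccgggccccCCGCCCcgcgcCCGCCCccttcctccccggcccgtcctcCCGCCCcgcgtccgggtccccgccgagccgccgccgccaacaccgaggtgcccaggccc
The Bcl2 window held 7 GC boxes and a GC content of 76.0%, whereas the Bok window held 1 GC box and 1 E2F core with a GC content of 56.3%. Among all 32851 RefSeq promoter windows of this length, 35.7% held at least 1 GC box and 1.59% the E2F core, and the median GC content was 52.7%. Of the 13 windows of the 9 members, 8 held a GC box, 2 the E2F core (1 each of Bok and Bcl2l1) and 0 a TATA box or a cAMP response element, which 13.6% and 1.79% of all windows held.

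Per kilobase of exon, Mcl1 was the most abundant member in the populations, with a median level of 59.6 CPM per kb over the 20 libraries (52.2 to 67.5). The effector Bak1 followed at 34.9 (22.5 to 45.9). Bcl2l1, Bcl2l2 and Bid lay close together at medians of 20.8, 19.3 and 16.9 CPM per kb, and the ranges of these 3 overlapped. Bad stood at 10.8 CPM per kb and Bcl2l11 at 5.95, followed by Bok at 2.92 (1.51 to 6.48) and Bcl2 at 1.78 (1.34 to 2.06). Bcl2, after which the family is named, was thus the member with the lowest median, and Mcl1 alone made up 20.3% to 39.2% of the summed level of the 9 genes over all 35 libraries. With the longest transcript in place of the joined exons as length, Bcl2l1 stood at 37.1 CPM per kb in the populations, Bid at 24.9, Bcl2l2 at 22.6, Bad at 18.1, Bcl2l11 at 9.49 and Bcl2 at 2.26.

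The clones, scaled apart from the populations, kept Mcl1 (median 58.9 CPM per kb) and Bak1 (67.6) near the top and varied most in 2 members. Bok reached from 5.77 to 69.5 CPM per kb among the 15 clones, a 12.05-fold range, and Bcl2 from 0.831 to 10.4, a 12.5-fold range. In the populations the corresponding ranges were 4.30-fold and 1.54-fold. Bcl2l11 spanned 4.08-fold across the clones against 1.95-fold in the populations. Mcl1 and Bak1 spanned only 2.38-fold and 1.57-fold across the clones. The 4 pro-survival genes together held 52.5% to 67.3% of the summed level in population libraries, whereas in clones they held 40.0% to 56.4%. All values are levels of RNA, and in bulk samples fewer cells of a kind and less RNA per cell cannot be told apart. Reads of 5 members are uncertain because their exons overlap another gene and the strand setting of the counting is not stated: Bcl2 with D630008O14Rik (6.09% of its exon length), Bcl2l2 with Gm20521, which is on the same strand (13.3%), Bak1 with 2 stretches annotated as Ggnbp1 (7.35% and 18.2%), Bad with Gpr137 (20.5%) and Bid with Bcl2l13 (17.7%).

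**Figure D1:**
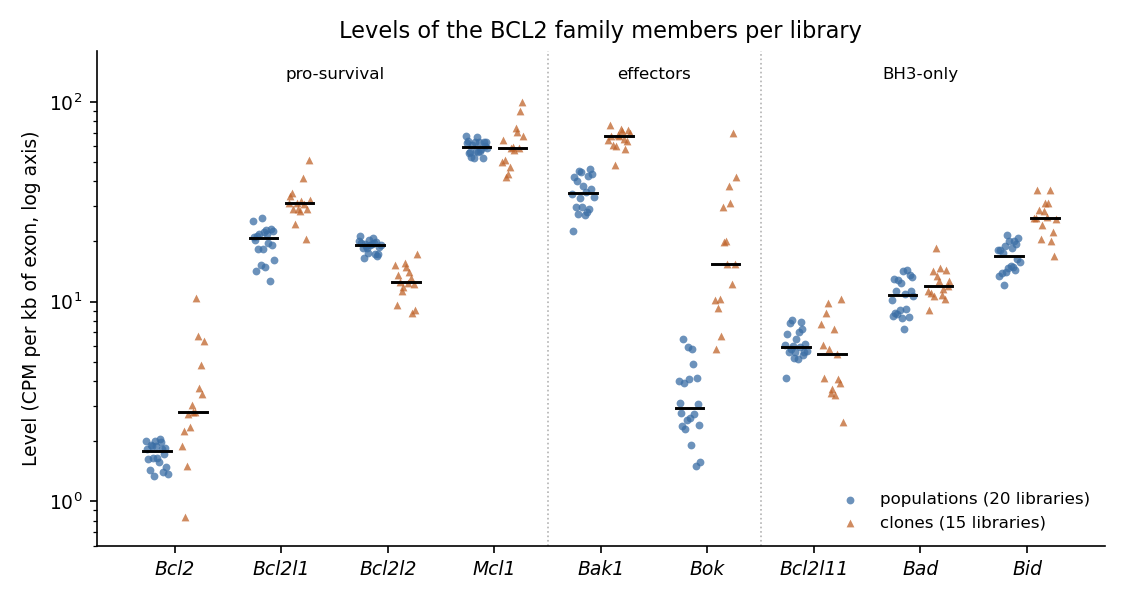
Level of each member in CPM per kb of exon (log axis) in the 20 population libraries (circles) and the 15 clones (triangles), with medians as black lines, ordered by role. Mcl1 and Bak1 lie at the top in both sets, while Bcl2 and Bok are low in the populations and spread over 12.5-fold and 12.05-fold ranges in the clones.

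The main question in the populations was what removal of the floxed Nelfb allele did to these genes with each construct. Of the 9 members 0 were called (edgeR's quasi-likelihood F test, with a Benjamini-Hochberg adjusted p below 0.05 and a log2 fold change beyond 0.5 in either direction) in EV, where 11.8% of all tested genes were. The count was also 0 in WT (0.0217% of all genes called), MT194 (4.22%) and MT486 (2.42%). In DMT 1 member, Bok, was called (9.92% of all genes). With 9 members, counts of 0 and 1 lie near these shares. At an unadjusted p under 0.05 there were 1, 2, 2, 1 and 2 members in EV, WT, MT194, MT486 and DMT, beside 26.5%, 6.22%, 16.4%, 14.5% and 24.9% of all genes. DESeq2 called 0, 0, 1, 1 and 1, each time Bok, beside 14.5%, 0.442%, 6.53%, 4.98% and 12.7%.

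Bok, the divergent effector, had the largest log2 fold change of the 9 members in each of the 5 constructs. In EV its level was 5.06 and 4.39 CPM (replicates 1 and 2) with Ad-GFP and 7.34 and 5.74 CPM with Ad-Cre-GFP. In WT it was 4.45 and 2.91 against 7.61 and 5.68 CPM, and in MT194 4.25 and 4.72 against 11.9 and 7.17 CPM. Within each of these constructs both Cre libraries lay above both GFP libraries. In MT486 the values were 4.79 and 3.53 CPM with Ad-GFP against 10.9 and 7.495 CPM with Ad-Cre-GFP. In DMT they were 5.04 and 2.77 against 10.7 and 8.97 CPM. Here too the groups did not overlap, so that Bok was higher with Cre in 5 of 5 constructs, in both replicates. These levels rest on 62 to 315 reads per library.

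The log2 fold change of Bok, Ad-Cre-GFP over Ad-GFP, was 1.34 (SE 0.34, 95% confidence interval 0.62 to 2.07, Benjamini-Hochberg adjusted p = 0.0224 by edgeR) in DMT, or 2.54-fold. In the order EV, WT, MT194 and MT486 it was 0.47, 0.86, 1.09 and 1.14, with SEs of 0.34, 0.34, 0.33 and 0.34 and adjusted p-values of 0.420, 0.728, 0.0910 and 0.103, none of which passed. Over the alternatives run, the log2 fold change of Bok ranged from 0.28 to 0.64 in EV and from 0.58 to 1.19 in WT. The ranges were 0.67 to 1.41 in MT194, 0.84 to 1.39 in MT486 and 0.96 to 1.82 in DMT. The DMT call was lost without DMT-Cre replicate 1 (log2 fold change 1.21), DMT-Cre replicate 2 (1.46) or DMT-GFP replicate 2 (0.96). It was also lost with only the compared groups in the fit (1.35, adjusted p = 0.0679). The replicate numbers paired the populations by the check given under the processing, and with the replicate number as a block Bok was called in WT (adjusted p = 0.0169, 3.09% of all genes called), MT194 (0.00045, 14.5%), MT486 (0.000427, 12.1%) and DMT (1.98e-05, 23.1%), but not in EV (0.0604, 25.4%). The differences between constructs were not resolved: relative to the Cre effect in EV, the Cre effect on Bok differed by 0.39 in WT (95% confidence interval -0.64 to 1.42), 0.62 in MT194 (-0.40 to 1.64), 0.67 in MT486 (-0.35 to 1.70) and 0.87 in DMT (-0.15 to 1.90) on the log2 scale. These 4 differences share the EV libraries. The mean of the 5 Cre effects, a contrast added after the values had been seen, was 0.98 for Bok (SE 0.15, 95% confidence interval 0.66 to 1.31, adjusted p = 0.000274), and Bok was the 1 member called in it, beside 16.7% of all genes.

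Bcl2, the founding pro-survival member, showed a smaller difference of the same sign in each construct. With Ad-GFP its level was 14.995 and 13.1 CPM in EV, 13.6 and 12.5 in WT, 15.04 and 12.3 in MT194, 15.2 and 14.4 in MT486, and 16.7 and 12.8 in DMT (replicates 1 and 2). With Ad-Cre-GFP it was 18.4 and 16.8 CPM in EV, 15.8 and 16.9 in WT, 17.5 and 17.4 in MT194, 18.3 and 17.3 in MT486, and 18.9 and 18.2 in DMT. In every construct both Cre libraries lay above both GFP libraries. The log2 fold changes were 0.32, 0.33, 0.36, 0.27 and 0.33 in EV, WT, MT194, MT486 and DMT, each with an SE of 0.15, and the adjusted p-values were 0.186, 0.789, 0.246, 0.469 and 0.189. Single libraries moved these values, that of DMT to 0.53 without DMT-GFP replicate 1 and to 0.14 without DMT-GFP replicate 2, and that of MT194 to 0.21 without MT194-GFP replicate 2. Within pairs the differences of Bcl2 ran from 0.17 to 0.29 in replicate 1 and from 0.27 to 0.50 in replicate 2. The adjusted p-values above are from the fit without the replicate block. Over the alternatives run, which include the block, the lowest adjusted p of Bcl2 was 0.0302 in EV, 0.0283 in MT194 and 0.0236 in DMT. In WT and MT486 it stayed above 0.05. Bcl2 was not called in any construct in these alternatives. The mean of the 5 effects was 0.32 (SE 0.07, 95% confidence interval 0.18 to 0.47) with an adjusted p of 0.00229, which is under 0.05, while the fold, 1.25, did not reach the fold threshold. Cell type markers moved with Cre as well. Within pairs of the same construct and replicate number, the summed level of the 10 fibroblast markers was higher with Cre in 9 of 10, with differences from -0.07 to 0.08 on the log2 scale in replicate 1 and from 0.13 to 0.55 in replicate 2, beside 10 of 10 for Bok and for Bcl2. The neural sum was higher in 7 of 10, the endothelial and haematopoietic sums in 6 and the epithelial sum in 3. The part of these markers in the differences of Bok and Bcl2 was not tested.

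**Figure D2:**
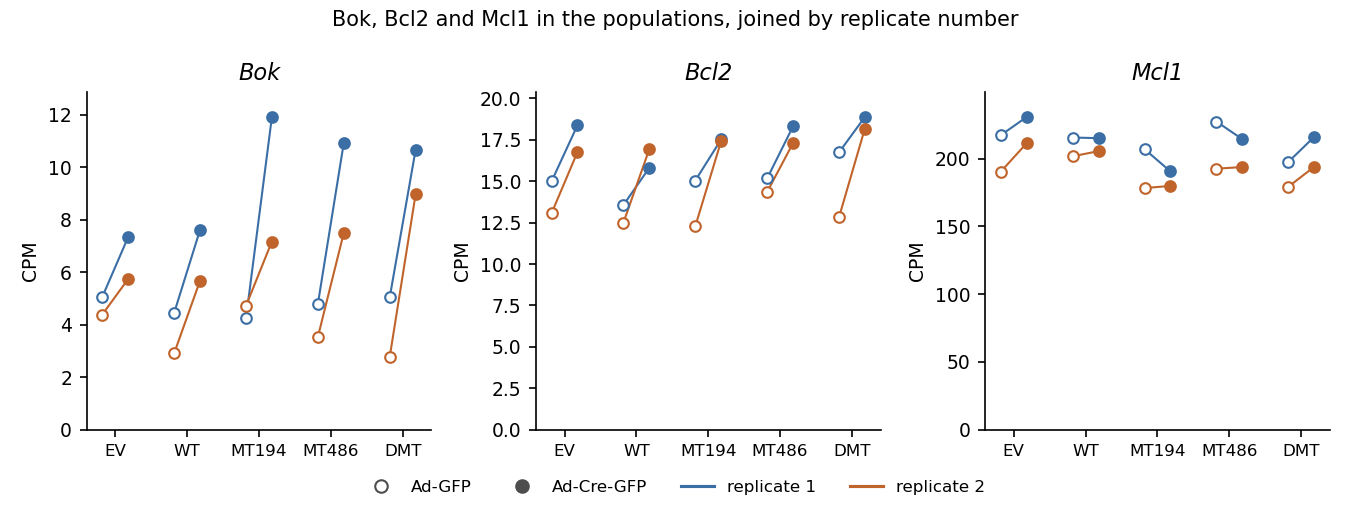
Level in CPM of Bok, Bcl2 and Mcl1 in the 5 construct populations with Ad-GFP (open) and Ad-Cre-GFP (filled), with lines joining libraries of the same replicate number. Every Bok and Bcl2 line goes up from GFP to Cre, from 4.25 to 11.9 CPM at the widest for Bok in MT194 replicate 1, while the Mcl1 lines of replicate 2 go up slightly in all 5 constructs and those of replicate 1 go down in WT, MT194 and MT486.

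The remaining pro-survival genes were not called in any construct in the fit without the block. Mcl1, a short-lived pro-survival protein, had 217 and 190 CPM with Ad-GFP and 231 and 211 CPM with Ad-Cre-GFP in EV, and its log2 fold changes over the 5 constructs lay between -0.06 and 0.12 with SEs of 0.15. The 95% confidence intervals of these 5 values reached from -0.37 at the lowest to 0.44 at the highest, so none of them reached the fold threshold of 0.5 in either direction. For Bcl2l2 the log2 fold changes ran from -0.15 in WT to 0.12 in EV (SE 0.12 each). Bcl2l1, which encodes BCL-XL, had 93.5 and 65.4 CPM with Ad-GFP and 115 and 96.9 CPM with Ad-Cre-GFP in EV, without overlap, for a log2 fold change of 0.42 (SE 0.29, adjusted p = 0.400). In DMT it had 90.5 and 58.1 against 105 and 100.1 CPM, a log2 fold change of 0.47 (SE 0.29, adjusted p = 0.365), which was called with the replicate block (0.50, SE 0.11, adjusted p = 0.0021).

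The effectors and BH3-only genes other than Bok were not called with Cre, with or without the replicate block. Bak1 had log2 fold changes of -0.32, 0.10, -0.20, 0.20 and -0.18 in EV, WT, MT194, MT486 and DMT, with SEs of 0.31. Bcl2l11, which encodes BIM, was lower with Cre in all 5 constructs, by -0.29, -0.10, -0.05, -0.11 and -0.22 on the log2 scale (SE 0.21 each), and the groups did not overlap in WT and DMT. Within pairs of the same construct and replicate number it was lower with Cre in 9 of 10, from -0.43 to 0.10, and with the block the adjusted p was 0.0667 in EV, 0.701 in WT, 0.796 in MT194, 0.628 in MT486 and 0.159 in DMT. The blocked mean of its 5 Cre effects was -0.16 (adjusted p = 0.0245), short of the fold threshold. Bad and Bid had log2 fold changes from -0.22 to 0.05 and from -0.15 to 0.05, with SEs of 0.34 and 0.28. None of these passed the test in the fit without the block, and with it Bak1 in EV had an adjusted p of 0.00373 at -0.33, short of the fold threshold.

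**Figure D3:**
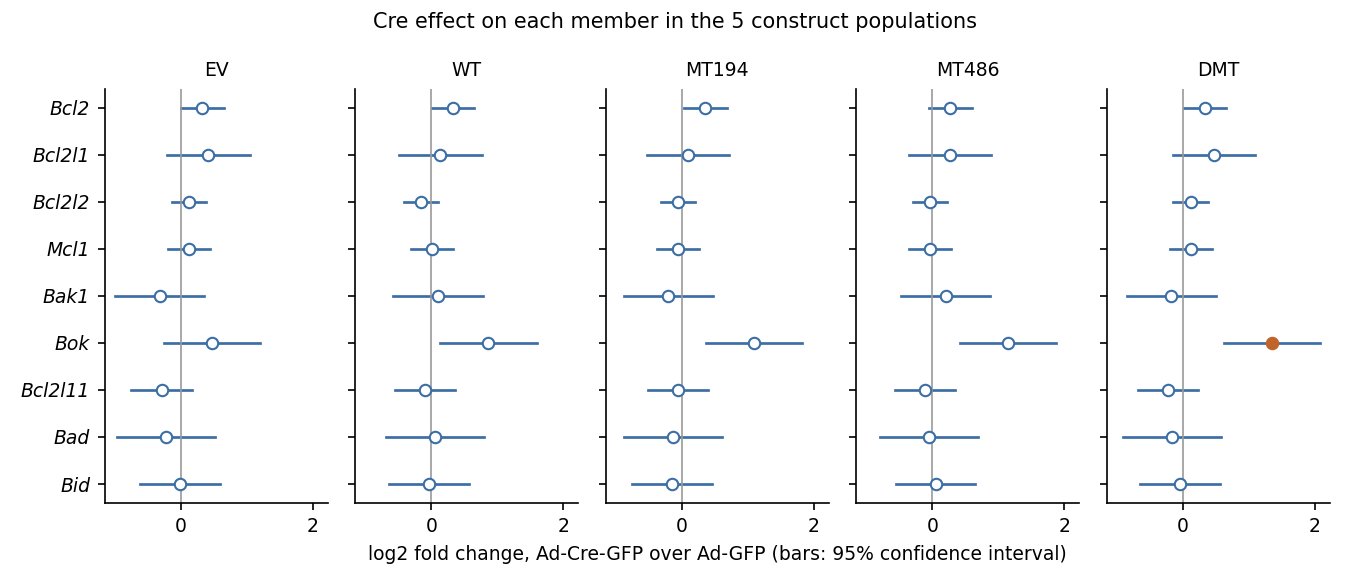
Log2 fold change of each member with Ad-Cre-GFP over Ad-GFP in each of the 5 construct populations, with 95% confidence intervals (horizontal bars). The filled point is the 1 member called, Bok in DMT at 1.34, and the points of Bcl2 lie between 0.27 and 0.36 in all 5 panels.

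The next question was whether a construct moved the family away from EV after Cre. These 4 comparisons share the EV-Cre libraries. The members called were 0 of 9 in WT (7.37% of all genes called), MT194 (0.225%), MT486 (0.362%) and DMT (0.00724%) by edgeR. DESeq2 called 0 in each, beside 11%, 1.52%, 2.97% and 0.0507% of all genes, and at an unadjusted p under 0.05 there were 1, 0, 0 and 0 members, beside 23.7%, 9.61%, 12.1% and 3.24%. The 1 was Bcl2l2, at 75.8 and 77.4 CPM in WT-Cre against 89.5 and 95.5 CPM in EV-Cre, a log2 fold change of -0.27 (SE 0.12, adjusted p = 0.189). Bak1, the effector, had 111 and 88.2 CPM in WT-Cre against 83.4 and 54.1 CPM in EV-Cre, both WT libraries above both EV libraries. Its log2 fold change of 0.53 had an SE of 0.31 (adjusted p = 0.338), and with the replicate block it was 0.55 (SE 0.08, adjusted p = 6.47e-05), the 1 member called there beside 23% of all genes. With the block, 0 members were called in MT194 (6.22% of all genes), MT486 (8.95%) and DMT (0.348%). For Bok the log2 fold change of WT-Cre over EV-Cre was 0.02, with a 95% confidence interval from -0.69 to 0.74.

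Tested as differences between Cre effects relative to EV, 0 of 9 members were called for WT (0.681% of all genes called) and for MT194, MT486 and DMT (0.00724% each, 1 gene, Nelfb itself), with 0 members at an unadjusted p under 0.05 (11.7%, 3.22%, 5.18% and 1.15% of all genes for WT, MT194, MT486 and DMT) and 0 by DESeq2 (3.04%, 0.138%, 0.326% and 0.00724%). With the replicate block 0 members were called for WT (13.4%) and MT194 (0.978%), and 1 for MT486 (2.68%). That 1 was Bak1, whose Cre effect was 0.52 higher in MT486 than in EV (SE 0.12, adjusted p = 0.0236), against an SE of 0.44 and an adjusted p of 1.00 without the block.

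Most members also differed between the 2 replicates of a group, an offset that enters the SE of the fit without the block and is taken out by the block. Replicate 1 lay above replicate 2 in 10 of 10 population groups for Bcl2l1 (median difference 0.50 on the log2 scale), Bak1 (0.49), Bad (0.44), Bid (0.42) and Mcl1 (0.14). For Bok and Bcl2 it did so in 9 of 10 groups (medians 0.42 and 0.10), for Bcl2l11 in 8 (0.28) and for Bcl2l2 in 3 (-0.03). Other measures moved with the replicate number as well. The summed level of the 10 fibroblast markers was 21657 to 24994 CPM in replicate 1 and 28082 to 50250 CPM in replicate 2, with Fn1 the most abundant of them, and reads on no gene made up 11.7% to 15.8% and 15.2% to 21.3%. Their part in the members' levels was not tested.

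**Figure D4:**
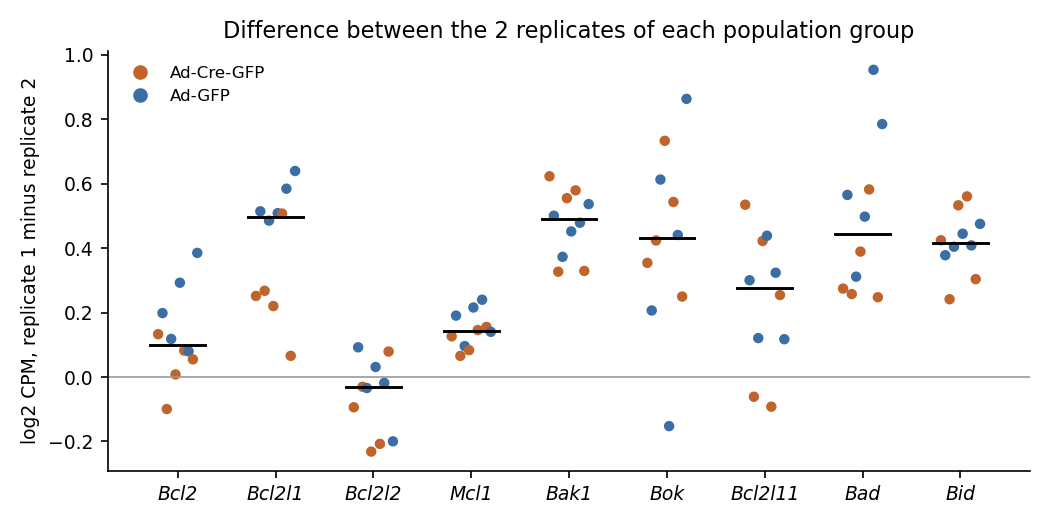
Difference in log2 CPM between replicate 1 and replicate 2 for each member in the 10 population groups (points, coloured by virus), with medians as black lines. Bcl2l1, Bak1, Bad, Bid and Mcl1 lie above 0 in all 10 groups, and Bcl2l2 scatters around a median of -0.03.

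Over the 20 populations, the genes whose log2 CPM most resembled that of Bcl2 were Frat2 (Pearson r = 0.93), Palm2 (0.92) and Tbl1xr1 (0.92), among 11484 other tested genes with a mean of at least 50 reads. For Bcl2l1 they were Szrd1 (0.96), Plekho2 (0.96) and Tomm70a (0.95), a gene of the mitochondrial import machinery. These r values describe the 20 libraries, which share constructs, viruses and replicate numbers.

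In the clones, the question was how NELFB forms differ in stable lines, against 2 references, WT(N48) and the libraries labelled WT. Comparisons with the same reference share its 3 clones. Against WT(N48), 2 of 9 members were called in MT194 clones, both lower (5.82% of all genes called), and 0 in Δ-C60 (0%) and MT486 clones (0.287%). Against the libraries labelled WT, 3 of 9 were called in Δ-C60 clones, all higher (8.33% of all genes), and 0 in MT194 (2.9%) and MT486 clones (0%). At an unadjusted p under 0.05 there were 2, 0, 1, 3, 2 and 0 members in the order MT194, Δ-C60 and MT486 against WT(N48) and Δ-C60, MT194 and MT486 against WT, beside 25.8%, 11.6%, 15.1%, 27.1%, 21.1% and 8.89% of all genes. In the same order DESeq2 called 2, 0, 1, 3, 0 and 0, beside 13.2%, 1.74%, 4.42%, 15.2%, 8.85% and 1.18%.

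Bcl2 was called in both comparisons that had calls. Its level was 94.9, 61.3 and 33.8 CPM in WT(N48) clones 1 to 3 and 44.0, 31.6 and 58.1 CPM in Δ-C60 clones. It was 13.7, 25.1 and 21.7 CPM in MT194 clones, 27.7, 25.6 and 25.7 CPM in MT486 clones, and 17.3, 20.5 and 7.61 CPM in the libraries labelled WT. All pBabe clones thus lay above all pLenti clones, so that vector and NELFB form cannot be told apart in these comparisons. Relative to WT(N48), Bcl2 fell in MT194 clones with a log2 fold change of -1.65 (SE 0.41, Benjamini-Hochberg adjusted p = 0.0362 by edgeR), and it was -1.27 (SE 0.40, adjusted p = 0.166) in MT486 clones. Relative to the libraries labelled WT, it rose in Δ-C60 clones by 1.56 (SE 0.41, adjusted p = 0.0357). Between clones with the same vector no difference of Bcl2 was called. The log2 fold change was -0.51 (SE 0.40) in Δ-C60 against WT(N48) clones. Against the libraries labelled WT it was 0.41 (SE 0.40) in MT194 and 0.80 (SE 0.40) in MT486 clones. Without both WT-labelled clones low in Nelfb, these values for MT194 and MT486 were -0.03 and 0.36.

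Mcl1 followed the same 2 contrasts with smaller differences. It had 254, 240 and 201 CPM in WT(N48) clones, 144, 149 and 160 CPM in MT194 clones, and 201, 203 and 197 CPM in MT486 clones. In Δ-C60 clones it had 307, 343 and 230 CPM, against 171, 219 and 175 CPM in the libraries labelled WT. The MT194 clones lay below every other clone. Mcl1 fell in MT194 relative to WT(N48), with a log2 fold change of -0.62 (SE 0.16, adjusted p = 0.0455), and rose in Δ-C60 relative to the libraries labelled WT by 0.64 (SE 0.16, adjusted p = 0.0344), 1.56-fold. Both contrasts set pBabe against pLenti clones, so vector and NELFB form cannot be told apart. Between clones with the same vector no difference of Mcl1 was called. Against WT without both WT-labelled clones low in Nelfb, the log2 fold change of Mcl1 was -0.55 in MT194 and -0.13 in MT486 clones.

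Bok, low in the populations, varied widely between clones within Δ-C60, MT194 and WT(N48). It had 128, 28.5 and 77.7 CPM in Δ-C60 clones and 69.5, 57.0 and 22.5 CPM in WT(N48) clones. It had 36.6, 37.1 and 28.3 CPM in MT486 clones, 18.9, 12.4 and 54.9 CPM in MT194 clones, and 18.8, 10.6 and 17.0 CPM in the libraries labelled WT. Relative to these last, Bok rose in Δ-C60 clones by 2.34 on the log2 scale (SE 0.62, adjusted p = 0.0389), without overlap between the groups. The vector differed between these groups as well, so vector and NELFB form cannot be told apart. Relative to WT(N48), with the same vector, the log2 fold change of Bok in Δ-C60 clones was 0.65 with a 95% confidence interval from -0.63 to 1.93.

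With 3 clones per group most of these calls were lost when 1 clone of either group was left out, while the log2 fold changes kept their direction. Over the 6 fits that each left out 1 clone, they ran from -1.94 to -1.24 for Bcl2 and from -0.70 to -0.55 for Mcl1 in MT194 against WT(N48), and from 1.21 to 1.81 for Bcl2, from 0.51 to 0.78 for Mcl1 and from 1.78 to 2.73 for Bok in Δ-C60 against the libraries labelled WT. In MT194 against WT(N48), both were lost without MT194 clone 1 or 3 or WT(N48) clone 1 or 2 (adjusted p from 0.082 to 0.172 for Bcl2 and from 0.0873 to 0.188 for Mcl1), and without MT194 clone 2 Mcl1 was lost (0.0817). In Δ-C60 against the libraries labelled WT, all 3 were lost without WT clone 1, 2 or 3 or Δ-C60 clone 1 (adjusted p from 0.0537 to 0.118 for Bcl2, from 0.0519 to 0.143 for Mcl1 and from 0.0904 to 0.119 for Bok). Without Δ-C60 clone 2 Mcl1 was lost (0.0598), and without Δ-C60 clone 3 Bcl2 and Bok were (0.0916 and 0.0671). With the compared groups alone all of these calls were lost. In MT194 Bcl2 and Mcl1 were then at -1.64 and -0.61 (adjusted p = 0.0814 and 0.0819). In Δ-C60 Bcl2, Mcl1 and Bok were at 1.52, 0.60 and 2.29 (adjusted p = 0.117, 0.193 and 0.0987). Without the filter on low counts, Mcl1 was lost in both comparisons (0.0723 and 0.0650) and Bok in Δ-C60 (0.0650). With both WT-labelled clones that were low in Nelfb left out, the log2 fold changes were 1.09 for Bcl2, 0.39 for Mcl1 and 2.85 for Bok, with adjusted p-values of 0.441, 0.540 and 0.362, and 3 genes in all were called. In MT194 and MT486 against the 1 remaining WT-labelled clone 0 members and 1 gene in all were called. In the order Δ-C60, MT194 and MT486, the members at an unadjusted p under 0.05 were then 1, 1 and 0 (Bok and Mcl1), beside 12%, 11.6% and 5.55% of all genes, and DESeq2 called 1, 0 and 0 (Bok), beside 2.76%, 1.91% and 0.264%.

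Cell type markers differed between the same groups. The summed level of the 10 fibroblast markers was 11598, 9953 and 7481 CPM in the libraries labelled WT and 23634, 14811 and 22691 CPM in Δ-C60 clones, without overlap. That of the 2 neural markers, nearly all of it Tubb3, was 43.5, 20.8 and 49.8 CPM against 6.50, 17.4 and 3.31 CPM, also without overlap. Between MT194 and WT(N48) clones the fibroblast sums overlapped, at 12396, 26146 and 13724 CPM against 25359, 20689 and 16432 CPM, and the neural sums were 28.6, 13.9 and 24.1 CPM against 14.3, 12.1 and 3.19 CPM. The fibroblast marker Dcn ran from 0.494 to 673 CPM among the 15 clones. The part of these markers in the members' levels was not tested.

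**Figure D5:**
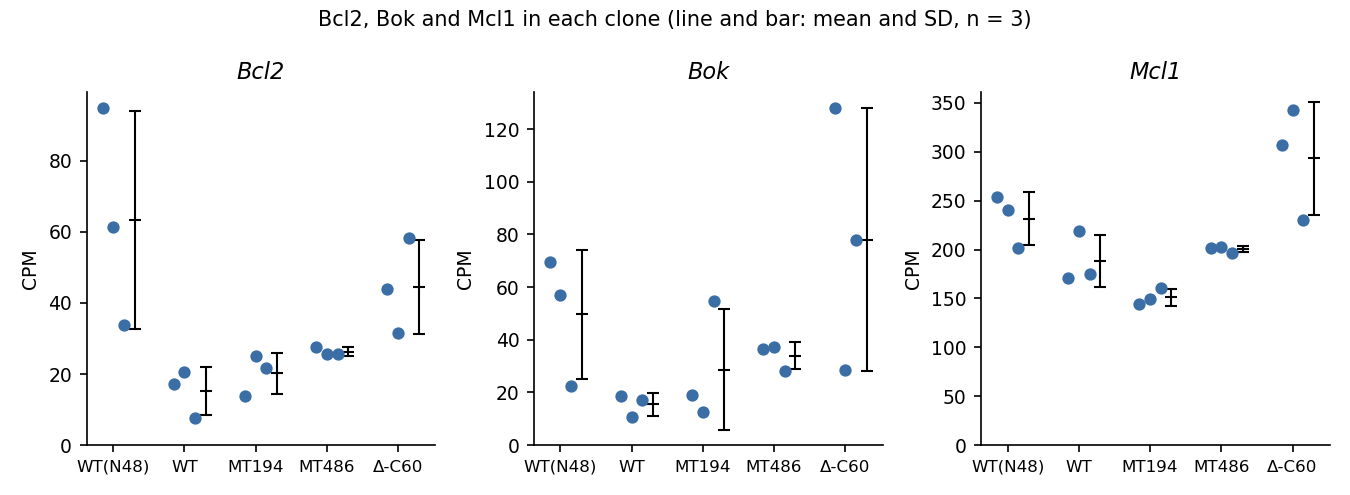
Level in CPM of Bcl2, Bok and Mcl1 in each clone (points) of the 5 clone groups, with the mean and SD of each group (line and bar, n = 3 clones). The WT(N48) and Δ-C60 clones lie above all other clones for Bcl2, the MT194 clones lie lowest for Mcl1 at 144 to 160 CPM, and Bok spreads from 28.5 to 128 CPM within Δ-C60.

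The other members were not called in any clone comparison. Bcl2l11 had 61.7, 48.7 and 33.1 CPM in the libraries labelled WT and 31.4, 82.3 and 20.1 CPM in Δ-C60 clones, a spread within groups that covered the differences between them. In MT194 clones, at 70.8, 78.9 and 46.6 CPM, all values of Bcl2l11 lay above the 27.2, 43.9 and 33.0 CPM of WT(N48), with a log2 fold change of 0.91 (SE 0.46, adjusted p = 0.232). Bad, which binds BCL-XL and BCL2, was 0.47 higher in MT194 clones than in the libraries labelled WT and Bak1 was 0.30 lower (log2 scale, adjusted p = 0.177 and 0.233), and without both WT-labelled clones low in Nelfb the values were 0.65 and -0.44 (adjusted p = 0.431 and 0.435). With single clones left out Bad ran from 0.24 (without MT194 clone 3) to 0.65 and Bak1 from -0.37 to -0.20. Bid, Bcl2l1 and Bcl2l2 had absolute log2 fold changes of at most 0.44, 0.28 and 0.25 in the 6 clone comparisons, and without both WT-labelled clones low in Nelfb of at most 0.31, 0.26 and 0.58 in the 3 comparisons with WT. In that fit Bcl2l2 in MT194 clones turned from -0.10 to 0.31 and Bid in MT486 clones from -0.04 to 0.12.

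Other genes of the same pathway were read from a list of 40 that holds further BCL2 relatives, the apoptosome and caspases, inhibitors of apoptosis, outer membrane channels and regulators of the members, of which 33 were tested and 7 were too low (Bik, Hrk, Bcl2l10, Bcl2l14, Bcl2a1a, Bcl2a1b and Bcl2a1d). In EV, 5 of the 33 fell with Cre and 1 rose (18.2% called, beside 11.8% of all genes), with a median log2 fold change of -0.02 over the list and 0.00036 over all tested genes. In DMT 4 fell (12.1%, beside 9.92% of all genes), in MT194 2 fell (6.06%, beside 4.22%), in MT486 1 fell (3.03%, beside 2.42%), and in WT 0 were called. With the replicate block the counts called were 9, 0, 7, 3 and 9 in EV, WT, MT194, MT486 and DMT, or 27.3%, 0%, 21.2%, 9.09% and 27.3%, beside 25.4%, 3.09%, 14.5%, 12.1% and 23.1% of all genes. Against EV-Cre, 5 of the 33 were higher in WT-Cre (15.2%, beside 7.37%) and 0 were called in MT194-Cre, MT486-Cre and DMT-Cre. With the block the counts called in either direction were 11, 2, 3 and 1, or 33.3%, 6.06%, 9.09% and 3.03%, beside 23%, 6.22%, 8.95% and 0.348% of all genes. With only the compared groups in the fit, Bmf alone was called in EV (1.8% of all genes), 0 list genes in MT194 (0%) and MT486 (0.0381%), Bmf and Casp9 in DMT (3.63%), and Bbc3, Birc5 and Bmf in WT-Cre against EV-Cre (2.8%).

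Bmf, a BH3-only gene outside the 9 members that links loss of attachment to apoptosis, had 67.1 and 49.98 CPM in EV with Ad-GFP and 16.5 and 15.9 CPM with Ad-Cre-GFP. It fell by 1.86 on the log2 scale in EV (SE 0.24, adjusted p = 0.000359) and by 1.86 in DMT (SE 0.24, adjusted p = 0.000426), and also fell in MT194 (-0.93, adjusted p = 0.0408) and MT486 (-1.22, adjusted p = 0.016). In WT, with 56.7 and 57.9 CPM against 38.7 and 36.7 CPM, the log2 fold change of Bmf was -0.60 (adjusted p = 0.687). The calls in EV and DMT held without any 1 of their libraries, whereas those in MT194 and MT486 were each lost in 3 of 4 such fits. Over the alternatives run, the log2 fold change of Bmf ranged from -1.24 to -0.53 in MT194 and from -1.47 to -0.92 in MT486. The Cre effect on Bmf differed between WT and EV by 1.25 (95% confidence interval 0.54 to 1.96), which did not pass over all genes (adjusted p = 0.128) but did with the replicate block (1.24, adjusted p = 0.00455). In that contrast 0 of the 33 list genes were called without the block, beside 0.681% of all genes, and 8 with it (Apaf1, Bbc3, Birc3, Bmf, Casp9, Ddit3, Pmaip1 and Trp53), or 24.2%, beside 13.4%.

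Bbc3, which encodes the BH3-only protein PUMA, had 9.10 and 9.22 CPM in EV with Ad-GFP and 4.19 and 4.38 CPM with Ad-Cre-GFP, and fell by 1.09 on the log2 scale (SE 0.22, adjusted p = 0.00646). It fell by 1.14 in MT194 (adjusted p = 0.00982) and by 0.85 in DMT (adjusted p = 0.025). Over the alternatives run, Bbc3 ranged from -1.37 to -0.93 in MT194 and from -1.15 to -0.48 in DMT. In WT-Cre it stood at 10.4 and 10.3 CPM, 1.27 higher than in EV-Cre on the log2 scale (SE 0.22, adjusted p = 0.00538). Casp9, the caspase started by the apoptosome, fell by 0.94 in EV (adjusted p = 0.0142) and by 1.02 in DMT (adjusted p = 0.0107). Its partner Apaf1 fell by 0.74 in EV (adjusted p = 0.00507), and the inhibitor of apoptosis Birc3 fell by 0.72 in EV (adjusted p = 0.0196) and by 0.63 in DMT (adjusted p = 0.0427). With the replicate block Casp9 was also called in MT194 (14.5% of all genes called), MT486 (12.1%) and WT-Cre against EV-Cre (23%), and Birc3 in MT194. DESeq2 also called Casp9 and Birc3 in MT194 (6.53%) and Casp9 in MT486 (4.98%). The stress-induced transcription factor gene Ddit3 rose by 0.67 in EV (SE 0.20, adjusted p = 0.0487), a call lost without any 1 of its 4 libraries, with RLE scaling (0.0509), without the filter on low counts (0.0747) and with the compared groups alone (0.197). The calls of Birc3, Casp9 and Apaf1 in EV were also lost without EV-Cre replicate 2 (adjusted p = 0.183, 0.132 and 0.0679), and those of Birc3 and Casp9 without EV-GFP replicate 1 (0.126 and 0.122). In MT194, Bbc3 was lost without MT194-Cre replicate 1 or MT194-GFP replicate 1 (0.0984 and 0.0736). In DMT, Birc3 was lost without any 1 of the 4 libraries (0.0943 to 0.239) or without the filter (0.0727), Bbc3 without DMT-Cre replicate 1 or 2 or DMT-GFP replicate 1 (0.0876 to 0.233), and Casp9 without DMT-Cre replicate 2 or DMT-GFP replicate 1 (0.0942 and 0.074). In WT-Cre against EV-Cre, Bmf, Apaf1, Birc3 and the mitotic gene Birc5 were higher by 1.22, 0.64, 0.69 and 1.42 (adjusted p = 0.00881, 0.0178, 0.0346 and 0.0307). All 5 calls of that comparison, Bbc3 included (adjusted p = 0.0515), were lost without EV-Cre replicate 2, all but that of Bbc3 without WT-Cre replicate 1 or 2 (0.0537 to 0.253), that of Birc5 without EV-Cre replicate 1 (0.0555), and that of Birc3 without the filter (0.0555).

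Pmaip1, which encodes the BH3-only protein NOXA, a partner of MCL1, had the opposite sign. In EV it had 4.62 and 2.29 CPM with Ad-GFP and 13.3 and 6.73 CPM with Ad-Cre-GFP, a log2 fold change of 1.53 (SE 0.47, adjusted p = 0.0506) that narrowly missed the threshold. In WT, MT194, MT486 and DMT the log2 fold changes of Pmaip1 were 0.48, 1.06, 1.61 and 1.51 (adjusted p = 1.00, 0.283, 0.117 and 0.067). With the replicate block Pmaip1 was called in EV, MT194, MT486 and DMT (adjusted p = 2.25e-05, 0.00142, 0.000112 and 5.27e-05) and not in WT (0.238). In the mean of the 5 Cre effects it was 1.24 higher with Cre (SE 0.22, adjusted p = 0.000688), with Bmf, Bbc3, Casp9, Birc3 and Casp6 at log2 fold changes of -1.29, -0.70, -0.77, -0.51 and -0.51, giving 6 of 33 called, 18.2% against 16.7% of all genes. In that mean Birc3 and Casp6 slipped under the fold threshold, with adjusted p still below 0.05, without single libraries such as EV-Cre replicate 2 (-0.48 and -0.46). In the clones 1 list gene was called in 1 of 6 comparisons, Pmaip1 in Δ-C60 against the libraries labelled WT (3.03% of the 33, beside 8.33% of all genes). It had 23.3, 2.77 and 65.5 CPM in Δ-C60 clones and 0.824, 1.91 and 2.79 CPM in the libraries labelled WT, of which the highest lay above the lowest Δ-C60 clone. Its log2 fold change was 4.05 (SE 1.03, adjusted p = 0.0333), in a comparison where the vector differed as well as the NELFB form. That call was lost without WT clone 1, 2 or 3 (adjusted p = 0.126, 0.0946 and 0.0917) or Δ-C60 clone 3 (0.0917), and without both WT-labelled clones low in Nelfb the log2 fold change was 3.96 (adjusted p = 0.397).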

How the data were processed

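RNA-seq libraries (poly(A) RNA, single reads) were made from 20 population and 15 clone samples derived from Nelfb flox/- MEFs. The deposited count files hold whole-number counts of reads per gene, which the authors made with Bowtie2 on mm10, SAMtools and HTSeq, without normalization. Their strand setting and annotation are not given in the sources used here. Reads on no gene (9.14% to 21.3% of reads) and ambiguous reads were left out of library sizes.

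Populations and clones were fitted apart with edgeR 4.0.16 in R 4.3.3 (TMM, filterByExpr, 1 mean per group, robust quasi-likelihood F test), with Benjamini-Hochberg adjustment across every gene tested. Calls needed an adjusted p below 0.05 and a log2 fold change beyond 0.5 in either direction. The SE was taken as the size of the log2 fold change divided by the square root of F. Exon lengths and positions came from GENCODE M21 (GRCm38) and promoters from RefSeq. Alternatives were DESeq2 1.42.0, RLE scaling, no filter, other fold thresholds, the compared groups alone, a block for the replicate number, and leaving out each library. The mean Cre effect, values within each replicate number, the alternatives for the pathway list and the fit without both WT-labelled clones low in Nelfb were added after seeing the data. The steps were tested on simulated data in which 200 genes were changed by a log2 fold of 2. Of these, 74% were called in EV-Cre against EV-GFP and 69% in MT194 against WT(N48) clones. False calls numbered 3 and 5. Smaller changes were not simulated, so a member not called can still have changed.

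Replicate numbers were taken to pair the populations, which come from 2 independent experiments: the deviations of same-numbered libraries from their group means correlated above 0.1 for 45 of 45 pairs of groups (0.420 to 0.730). In the clones 3 of 30 did. The members and lists were chosen with earlier results of these data known. The named genes were the 9 members, Nelfb, the called genes of the pathway list and, for the 2 members with the smallest p in EV, the 3 genes with the highest correlation. No 2 replicates agreed within sampling noise (chi-square per degree of freedom 4.94 or more in 25 pairs). With 2 or 3 samples per group, p-values measure the spread between these samples, and each clone is 1 colony.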

Additional observations from a re-analysis of the deposited data

How the results depend on the processing

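The 21 member fold changes followed through the alternatives were those with an unadjusted p under 0.05 in the main fit, with Bcl2 and Bok added for the Cre effects and their mean. They kept their direction in each alternative, which this choice from the same data favours. Of the recomputed values, 191 stayed on their side of the threshold, 6 passed it newly and 43 lost it. Other member fold changes turned without both WT-labelled clones low in Nelfb. In MT194 against WT clones Bcl2 went from 0.41 to -0.03 and Bcl2l2 from -0.10 to 0.31. In MT486 against WT clones Mcl1 went from 0.09 to -0.13, Bak1 from 0.003 to -0.13 and Bid from -0.04 to 0.12. Of the list genes' fold changes, 236 stayed and 82 lost their call. Counts of the 33 list genes called changed as follows, with the share of all genes called in parentheses (1 list gene is 3.03% of the list). The compared groups alone gave 1 in EV (1.8%), 0 in MT194 (0%) and MT486 (0.0381%), 2 in DMT (3.63%), 3 in WT-Cre against EV-Cre (2.8%) and 0 in Δ-C60 against WT clones (0.627%). DESeq2 gave 7 in EV (14.5%), 4 in MT194 (6.53%), 3 in MT486 (4.98%), 5 in DMT (12.7%), 2 each in MT194-Cre (1.52%) and MT486-Cre (2.97%) against EV-Cre and 3 in Δ-C60 against WT clones (15.2%). No filter on low counts gave 5 in EV (7.07%), 3 in DMT (5.7%), 4 in WT-Cre against EV-Cre (3.9%) and 0 in Δ-C60 against WT clones (4%), where the block also gave 0 (5.43%). RLE scaling gave 5 in EV (11.7%). A log2 fold threshold of 1 gave 2 in EV (6.52%), 1 in MT194 (2.48%), 2 in DMT (5.31%), 3 in WT-Cre against EV-Cre (4.05%) and 2 in the mean Cre effect (5.56%), and no fold threshold gave 5 in DMT (10.8%) and 10 in the mean (34.3%). With single libraries left out the count ran from 3 to 5 in EV (5.23% to 7.53%), 0 to 3 in MT194 (1.34% to 2.09%), 0 to 1 in MT486 (0.539% to 0.909%), 1 to 3 in DMT (3.69% to 5.61%), 0 to 4 in WT-Cre against EV-Cre (1.23% to 4.75%), 4 to 6 in the mean (15.3% to 17.2%) and 0 to 4 in Δ-C60 against WT clones (0.742% to 13.3%). Counts of members called changed as follows, with the same share in parentheses. For the populations, the replicate block gave 1 in WT (3.09%), MT194 (14.5%) and MT486 (12.1%), 2 in DMT (23.1%), 1 in WT-Cre against EV-Cre (23%) and 1 in the difference between the Cre effects of MT486 and EV (2.68%), the last 2 with Bak1 and the others with Bok, joined by Bcl2l1 in DMT. For the clones the replicate numbers did not pair the samples (3 of 30 correlations were above 0.1), and the block gave 0 in MT194 against WT(N48) (2.99%) and 1 in Δ-C60 against WT (5.43%). The block changed no other count of members called. DESeq2 gave 1 in MT194 (6.53%), 1 in MT486 (4.98%) and 1 in MT486 clones against WT(N48) (4.42%). Fitting the compared groups alone gave 0 in DMT (3.63%), in MT194 against WT(N48) clones (1.07%) and in Δ-C60 against WT clones (0.627%), and 0 of 9 lies near these shares. No filter on low counts gave 1 in each of these clone comparisons (2.46% and 4%). A log2 fold threshold of 1 gave 1 in MT194 against WT(N48) clones (3.24%), 2 in Δ-C60 against WT clones (5.38%) and 0 in the mean Cre effect (5.56%), and no fold threshold gave 2 in the last (34.3%). With single libraries left out, the count ran from 0 to 1 in DMT (3.69% to 5.61%), from 0 to 2 in MT194 against WT(N48) (0.423% to 10.3%) and from 0 to 2 in Δ-C60 against WT (0.742% to 13.3%), and without both WT-labelled clones low in Nelfb it was 0 in the last (0.0214%). Where a group kept 1 library, it was assumed to vary like the other groups. RLE scaling changed no count of members called. The causes of these changes were not tested. With the longest transcript as length, the levels in CPM per kb were 2.26 for Bcl2, 37.1 for Bcl2l1, 22.6 for Bcl2l2, 9.49 for Bcl2l11, 18.1 for Bad and 24.9 for Bid. Bok had 62 to 315 reads per population library, and the SE of its Cre effects was 0.33 to 0.34, or 0.19 to 0.20 with the block. The part of depth in these SEs was not tested.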
